A study of Mus musculus with 18 samples.

Results

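The unfolded protein response genes described here are 10 genes of the endoplasmic reticulum (ER), which are the sensors Ern1 and Atf6, the transcription factors Xbp1, Atf4 and Ddit3, and the target genes Hspa5, Sdf2l1, Dnajb9, Edem1 and Herpud1. They were chosen by name, with earlier results of these data known, as the rows of the read count table whose Ensembl identifier maps to these symbols, and the rule used no measured value. Of the 54232 rows, 11 carried a member's symbol, because Ddit3 has a second identifier whose count was 0 in all 18 libraries and which was not used. All 10 genes passed the filter on low counts and are among the 17074 genes tested.

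The ER folds proteins that are secreted or carried on the cell surface. When unfolded protein builds up there, 3 membrane sensors act in parallel. IRE1, encoded by Ern1, splices the Xbp1 mRNA so that it encodes an active transcription factor. ATF6 moves to the Golgi apparatus, where it is cut to release a transcription factor. PERK, encoded by Eif2ak3, phosphorylates the initiation factor eIF2 and so favours translation of Atf4 mRNA, and ATF4 in turn drives Ddit3, which encodes CHOP. In dendritic cells (DCs) the IRE1 and XBP1 arm is known for its steady activity in cross-presenting conventional type 1 DCs (cDC1), which in the intestine are CD103+ CD11b-. Splicing of Xbp1, cleavage of ATF6 and phosphorylation of eIF2 are not seen in counts of reads per gene, so the values below are transcript levels and not activities.

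RNA was measured by RNA-seq in 18 libraries of sorted DCs from C57BL/6J mice, all of the genotype CD11a KO (CD11a is the integrin chain encoded by Itgal), with no wild-type library among them. The DCs were CD11b+ single-positive, CD103+ single-positive or double-positive (Double+ in the labels), and each subset came from the small intestinal lamina propria (LP) or from the intestinal lymph node (LN), with 3 libraries in each of the 6 groups. No treatment, age or infection is given for these mice, and the gate that the protocol states for DCs, live CD45+ CD64- MHCIIhigh CD11c+ cells, is given there for C57BL/6 mice. The labels do not say whether the replicates came from separate animals or from pools, so p-values measure the spread between these samples, which may be technical.

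Each library held between 23574292 and 46901985 counts. Itgal was read in every library, at 6.45 to 26.6 CPM (counts-per-million units, with TMM-normalized library sizes), and the sources used here do not give which part of the gene was deleted, so its level does not check the genotype. The conventional DC markers summed to 63571 to 77634 CPM in the LP libraries and to 18939 to 46237 CPM in the LN libraries, with none of the 5 at 0. Itgae, which encodes CD103, averaged 1336 CPM in LP CD103+ and 812 CPM in LP double-positive DCs, but 35.4 and 46.1 CPM in the LN groups of the same names. Itgam, which encodes CD11b, averaged 61.3 CPM in LP CD11b+ and 68.5 CPM in LP double-positive DCs but 5.16 CPM in LN double-positive DCs, so transcripts of both sort genes were low under the LN double-positive label. Markers of cDC1 summed to 7725 to 8230 CPM in LP CD103+, 1988 to 2056 CPM in LN CD103+ and 938 to 1118 CPM in LN double-positive DCs. They summed to 256 to 292 CPM in LP double-positive DCs and to 310 to 642 CPM in the CD11b+ groups. Markers of type 2 conventional DCs summed to 2632 to 3048 CPM in LP double-positive and 201 to 244 CPM in LN double-positive DCs. In CD11b+ DCs these sums were 2160 to 3098 CPM in LP and 769 to 1205 CPM in LN, and in CD103+ DCs 22.7 to 51.6 CPM. Lineage markers under the double-positive label thus differed between the tissues. Markers of mature DCs (9 genes, of which Il4i1 alone was at 0, in 4 LP libraries) summed to 575 to 1789 CPM in LP, 3331 to 4889 CPM in LN CD11b+, 25690 to 26852 CPM in LN CD103+ and 20178 to 22136 CPM in LN double-positive DCs. The plasma cell markers (6 genes, none at 0) summed to 7811 to 13391 CPM in the CD11b+ libraries of both tissues and to 1282 to 3403 CPM elsewhere. The T cell markers (7 genes, none at 0) summed to 5.26 to 29.0 CPM in LP and 247 to 546 CPM in LN. Xist stood at 0.285 CPM or less in the 9 LP libraries and at 15.3 to 89.0 CPM in the 9 LN libraries, and the Y-linked Ddx3y at up to 74.3 CPM in LP and at 0.350 CPM or less in 7 LN libraries. LN CD11b+ replicate 3 and LN double-positive replicate 3 stood apart, with Ddx3y at 58.0 and 52.1 CPM beside Xist at 15.3 and 26.1 CPM, and results that changed without this pair are given with and without it. The sex of the animals and the tissue cannot be told apart.

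The promoters were read for the sites through which the response is known to act. Windows of 250 bases before the transcript start were taken from RefSeq (GRCm38.p6) for 9 of the 10 genes. Both strands were searched for the ER stress response element ERSE (CCAAT, 9 bases of any kind, then CCACG), ERSE-II (ATTGG, 1 base of any kind, then CCACG), the unfolded protein response element UPRE (TGACGTGG) and the composite C/EBP-ATF site bound by ATF4 and CHOP (TGATGNAA). Hspa5 held an ERSE at chr2:34772025-34772043, 65 to 47 bases before the RefSeq start, and Herpud1 held an ERSE-II at chr8:94386377-94386387, 52 to 42 bases before the start. The Hspa5 gene span given below, from GENCODE, begins at chr2:34771970, so the ERSE lies within that span. Herpud1 also held a C/EBP-ATF site on the opposite strand at chr8:94386317-94386324. ERSE was found in 0.113% of the 32851 promoters in the RefSeq table, ERSE-II in 0.0304%, UPRE in 0.563% and the C/EBP-ATF site in 3.45%. The other 7 windows held none of these letters in full, which says nothing of sites with other letters or at other places. The Hspa5 match and the windows of Herpud1 (chr8:94386179-94386428, plus strand) and Sdf2l1 (chr16:17132384-17132633, minus strand, no match) are given 5′ to 3′ on the strand of the gene, because the first pair hold the matches and Sdf2l1 had the widest difference between tissues. Capitals mark the matched letters.
Hspa5 ERSE match: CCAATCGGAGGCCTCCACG
Herpud1 promoter: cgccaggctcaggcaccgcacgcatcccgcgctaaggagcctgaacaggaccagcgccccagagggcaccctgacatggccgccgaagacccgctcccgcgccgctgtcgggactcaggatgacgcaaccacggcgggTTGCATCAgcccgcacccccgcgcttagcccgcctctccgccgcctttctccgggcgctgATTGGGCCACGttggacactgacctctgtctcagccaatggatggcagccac
Sdf2l1 promoter: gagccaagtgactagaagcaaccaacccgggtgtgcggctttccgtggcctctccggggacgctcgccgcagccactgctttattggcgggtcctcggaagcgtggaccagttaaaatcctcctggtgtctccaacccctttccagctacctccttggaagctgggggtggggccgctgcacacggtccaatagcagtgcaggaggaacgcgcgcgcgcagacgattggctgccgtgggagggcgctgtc

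Levels of different genes were compared as CPM per kilobase of merged exon length. In LP CD103+ DCs the highest of the 10 was Hspa5, at 611 ± 58.2 CPM per kb (SD, n = 3), followed by Sdf2l1 at 460 ± 28.8, Herpud1 at 324 ± 28.8, Xbp1 at 95.9 ± 6.04 and Atf4 at 64.9 ± 4.67 CPM per kb. Edem1 stood at 33.6 ± 1.76, Dnajb9 at 13.1 ± 0.50, Atf6 at 5.88 ± 0.333, Ddit3 at 3.69 ± 0.417 and Ern1 at 1.75 ± 0.0961 CPM per kb. The order was another in LN CD103+ DCs, where Herpud1 was highest at 291 ± 13.3 CPM per kb, ahead of Hspa5 at 171 ± 13.2 and Sdf2l1 at 87.3 ± 2.00 CPM per kb. Ddit3 stood above Atf6 there, at 13.4 ± 0.963 against 2.74 ± 0.120 CPM per kb. In LN double-positive DCs Herpud1 reached 380 ± 23.3 CPM per kb while Hspa5 stood at 158 ± 11.0. Herpud1 thus headed the set in the CD103+ and double-positive DCs of the lymph node, and the chaperone Hspa5 in LP CD11b+ and LP CD103+ DCs. In LP double-positive DCs Hspa5 (333 ± 46.3 CPM per kb) and Sdf2l1 (326 ± 25.0) lay within each other's spread, as did Hspa5 (242 ± 26.9) and Herpud1 (234 ± 27.6) in LN CD11b+ DCs.

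**Figure D1:**
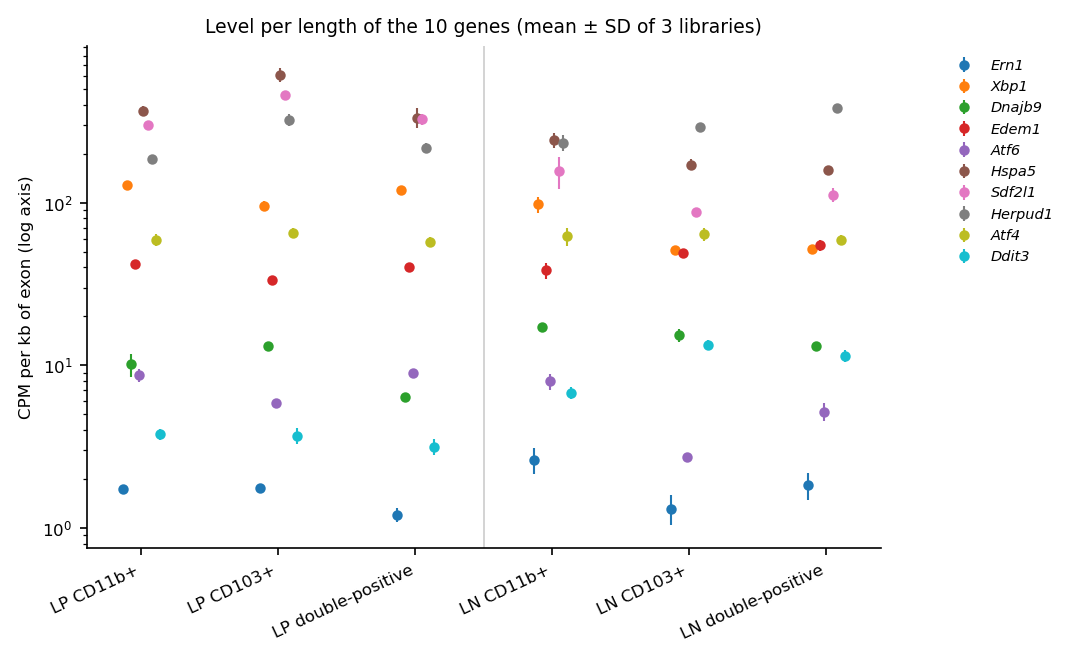
Mean CPM per kb of exon (log axis) of the 10 genes in each of the 6 groups, with the SD of 3 libraries as error bars. Hspa5 falls from 611 CPM per kb in LP CD103+ DCs to 171 in LN CD103+ DCs, where Herpud1, at 291, is the highest of the set.

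Over the 6 groups, the ratio of the highest to the lowest group mean was 5.27 for Sdf2l1, 4.24 for Ddit3, 3.88 for Hspa5, 3.27 for Atf6, 2.71 for Dnajb9, 2.52 for Xbp1, 2.17 for Ern1, 2.05 for Herpud1, 1.63 for Edem1 and 1.13 for Atf4. The 10 genes did not share a highest group. LP CD103+ DCs were highest for Hspa5, Sdf2l1 and Atf4, LP CD11b+ DCs for Xbp1, LP double-positive DCs for Atf6, LN CD11b+ DCs for Ern1 and Dnajb9, LN CD103+ DCs for Ddit3, and LN double-positive DCs for Herpud1 and Edem1. The highest group was not separated from the next by edgeR for Atf4 (adjusted p = 0.92), Atf6 (0.85), Xbp1 (0.47) or Ddit3 (0.23). The same held for Edem1 (0.22), Dnajb9 (0.19) and Ern1 (0.026). In bulk RNA, fewer cells that express a gene and less RNA per cell cannot be told apart.

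**Figure D2:**
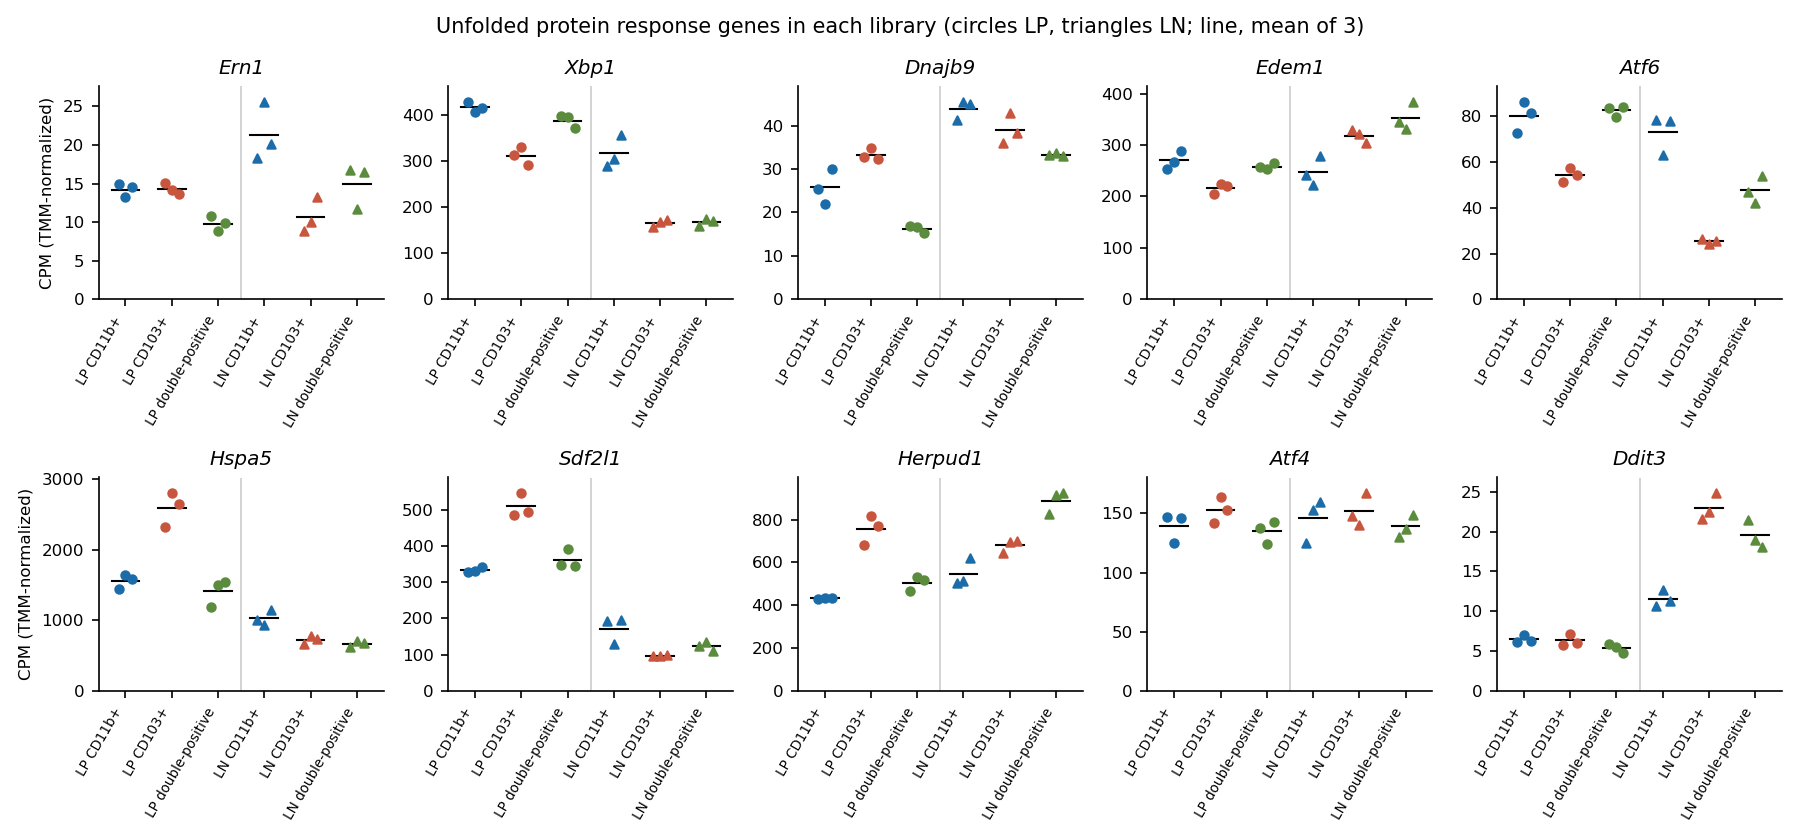
CPM (TMM-normalized, each axis from 0) of each of the 10 genes in the 18 libraries, with circles for LP, triangles for LN and a line at the mean of 3. Hspa5 and Sdf2l1 are lower in every LN library than in any LP library, Ddit3 is higher in every LN library, and the 6 groups of Atf4 overlap.

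Hspa5 (ENSMUSG00000026864, chr2:34771970-34777547, plus strand, 7 exons) encodes BiP, the Hsp70 chaperone of the ER, which also holds the sensors inactive. Its CPM was 1436, 1634 and 1583 in LP CD11b+ DCs, 2316, 2799 and 2641 in LP CD103+ DCs and 1182, 1502 and 1537 in LP double-positive DCs. In the lymph node it was 999, 926 and 1149 in CD11b+, 666, 777 and 731 in CD103+ and 616, 707 and 676 in double-positive DCs. Every LP library stood above every LN library, and LP CD103+ DCs stood above all others. The log2 fold change of LN over LP was -0.60 ± 0.11 (SE) in CD11b+ (edgeR quasi-likelihood test, Benjamini-Hochberg adjusted p = 0.00057), -1.83 ± 0.12 in CD103+ (adjusted p = 7.1e-10) and -1.08 ± 0.12 in double-positive DCs (adjusted p = 4.8e-07). In the order of levels, LP CD11b+ and LP double-positive DCs overlapped (adjusted p = 0.5), as did LN CD103+ and LN double-positive DCs (adjusted p = 0.49).

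Sdf2l1 (ENSMUSG00000022769, chr16:17130138-17132383, minus strand, 3 exons) encodes an ER protein that works with BiP and its partners of the DnaJ family. CPM values were 329, 331 and 342 in LP CD11b+, 487, 546 and 495 in LP CD103+ and 347, 393 and 344 in LP double-positive DCs. They were 193, 129 and 195 in LN CD11b+, 95, 96.0 and 99.2 in LN CD103+ and 125, 136 and 111 in LN double-positive DCs. As with Hspa5, no LN library reached an LP library. The LN over LP log2 fold change was -0.95 ± 0.12 in CD11b+ (edgeR adjusted p = 1.4e-05), -2.40 ± 0.13 in CD103+ (adjusted p = 8.9e-11) and -1.55 ± 0.13 in double-positive DCs (adjusted p = 1.9e-08). The value of -2.40 was the widest difference between tissues of any of the 10 genes. In CD11b+ DCs the fold change passed 2 when LN CD11b+ replicate 1 (-1.04) or replicate 3 (-1.06) was left out. The neighbours LP double-positive and LP CD11b+ were not separated by the test (adjusted p = 0.64), nor were LN double-positive and LN CD103+ (adjusted p = 0.046).

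Ern1 (ENSMUSG00000020715, chr11:106394650-106487852, minus strand, 22 exons), the IRE1 sensor, had the fewest transcripts per length of the set in every group. Its CPM was 14.9, 13.2 and 14.5 in LP CD11b+, 15.1, 14.1 and 13.6 in LP CD103+ and 10.8, 8.84 and 9.85 in LP double-positive DCs. LN CD11b+ libraries held 18.3, 25.6 and 20.1 CPM, LN CD103+ libraries 8.87, 9.95 and 13.2 and LN double-positive libraries 16.8, 11.7 and 16.5. The tissues therefore differed in different directions by subset, with log2 fold changes of 0.59 ± 0.17 in CD11b+ (edgeR adjusted p = 0.013), -0.42 ± 0.18 in CD103+ (adjusted p = 0.048) and 0.61 ± 0.18 in double-positive DCs (adjusted p = 0.0068). Of the 3, the value in double-positive DCs passed 0.01, and it no longer did when any of 8 libraries was left out, with the farthest value at 0.51 (adjusted p = 0.037) without LN double-positive replicate 1. Without LN CD103+ replicate 3 the value in CD103+ DCs was -0.62 (adjusted p = 0.0086), and without LN double-positive replicate 2 the adjusted p in CD11b+ DCs was 0.0077. With library totals in place of TMM the values were 0.73 in CD11b+ (adjusted p = 0.004), -0.65 in CD103+ (adjusted p = 0.0051) and 0.44 in double-positive DCs (adjusted p = 0.046), so that which of the 3 passed depended on the scaling. Without LN CD11b+ replicate 3 and LN double-positive replicate 3 together, the value in double-positive DCs was 0.54 (adjusted p = 0.037).

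Xbp1 (ENSMUSG00000020484, chr11:5520659-5525893, plus strand, 4 exons) encodes the transcription factor that IRE1 activates. In LP it stood at 429, 407 and 416 CPM in CD11b+, 314, 330 and 291 in CD103+ and 398, 396 and 371 in double-positive DCs. In LN it stood at 289, 305 and 357 CPM in CD11b+, 157, 167 and 172 in CD103+ and 160, 175 and 170 in double-positive DCs. The LN CD103+ and LN double-positive libraries formed a low group of 6 that overlapped no other. LP CD103+ DCs, whose sum of cDC1 markers was the highest of all groups, were the lowest of the LP groups. LN over LP, Xbp1 changed by -0.40 ± 0.08 on the log2 scale in CD11b+ (edgeR adjusted p = 0.00084), -0.91 ± 0.08 in CD103+ (adjusted p = 3.8e-08) and -1.21 ± 0.08 in double-positive DCs (adjusted p = 1.7e-09). Plasma cells are rich in Xbp1, and the highest mean, 417 ± 10.9 CPM, was that of LP CD11b+ DCs, whose plasma cell markers summed to 8950 to 13391 CPM. LP double-positive DCs, with a sum of 1507 to 1783 CPM, held 388 ± 15.0 CPM, and the log2 fold change of LP double-positive over LP CD11b+ DCs was -0.10 ± 0.08 (adjusted p = 0.47). In LN, CD11b+ DCs held plasma cell sums of 7811 to 10419 CPM and a mean Xbp1 of 317 CPM. The other LN groups held sums of 1282 to 3403 CPM and a mean Xbp1 of 165 (CD103+) and 168 CPM (double-positive). The part of plasma cell RNA in the level of Xbp1 was not tested.

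Dnajb9 and Edem1 are targets of XBP1. Dnajb9 (ENSMUSG00000014905, chr12:44205559-44210326, minus strand, 4 exons) encodes ERdj4, a DnaJ partner of BiP that keeps IRE1 inactive. Its CPM was 25.3, 21.9 and 30.1 in LP CD11b+, 32.8, 34.8 and 32.4 in LP CD103+ and 16.8, 16.7 and 15.2 in LP double-positive DCs. In LN it was 41.2, 45.5 and 45.1 in CD11b+, 36.0, 42.9 and 38.2 in CD103+ and 33.3, 33.8 and 32.9 in double-positive DCs. In CD11b+ and double-positive DCs LN libraries were the higher, in contrast to Xbp1. The log2 fold change of LN over LP was 0.77 ± 0.11 in CD11b+ (edgeR adjusted p = 2.9e-05), 0.23 ± 0.11 in CD103+ (adjusted p = 0.073) and 1.04 ± 0.11 in double-positive DCs (adjusted p = 3.7e-07). The value in CD103+ DCs was 0.00 (adjusted p = 0.98) with library totals in place of TMM. In double-positive DCs the fold was just over 2, and without LP double-positive replicate 3 it was 0.99 on the log2 scale and with library totals in place of TMM 0.87.

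Edem1 (ENSMUSG00000030104, chr6:108828641-108859356, plus strand, 13 exons) encodes a mannosidase-like protein that hands misfolded glycoproteins to degradation. Levels were 253, 267 and 288 CPM in LP CD11b+, 204, 225 and 221 in LP CD103+ and 257, 253 and 265 in LP double-positive DCs, against 241, 222 and 278 in LN CD11b+, 330, 321 and 303 in LN CD103+ and 345, 331 and 384 in LN double-positive DCs. LN libraries were higher in CD103+ DCs (log2 fold change 0.55 ± 0.09, edgeR adjusted p = 2.8e-05) and in double-positive DCs (0.45 ± 0.09, adjusted p = 0.00023), and the groups overlapped in CD11b+ DCs (-0.13 ± 0.09, adjusted p = 0.27). The value in CD11b+ DCs was 0.01 with library totals in place of TMM. No change of Edem1 reached 2-fold.

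Atf6 (ENSMUSG00000026663, chr1:170704674-170867771, minus strand, 16 exons) encodes the sensor that is itself a transcription factor. It was read at 72.8, 86.4 and 81.3 CPM in LP CD11b+, 51.1, 57.3 and 54.5 in LP CD103+ and 83.9, 79.7 and 84.3 in LP double-positive DCs. LN libraries held 78.6, 63.3 and 78.1 CPM in CD11b+, 26.3, 24.1 and 25.4 in CD103+ and 47.1, 42.0 and 54.1 in double-positive DCs. CD103+ DCs were the lowest subset in both tissues, and LN CD103+ DCs held the lowest level of all 6 groups with no overlap. The LN over LP log2 fold change was -0.13 ± 0.10 in CD11b+ (95% confidence interval -0.34 to 0.08, edgeR adjusted p = 0.34), -1.10 ± 0.10 in CD103+ (adjusted p = 8.6e-08) and -0.79 ± 0.10 in double-positive DCs (adjusted p = 4e-06).

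Herpud1 (ENSMUSG00000031770, chr8:94386438-94395377, plus strand, 10 exons) encodes a membrane protein of the complex that draws misfolded proteins out of the ER for degradation. LP libraries held 431, 433 and 434 CPM in CD11b+, 682, 815 and 768 in CD103+ and 466, 533 and 517 in double-positive DCs. LN libraries held 505, 514 and 621 CPM in CD11b+, 643, 695 and 699 in CD103+ and 824, 913 and 923 in double-positive DCs. LP CD103+ and LN CD103+ DCs overlapped, while every LN double-positive library stood above every other library. Herpud1 was higher in LN by 0.81 ± 0.09 on the log2 scale in double-positive DCs (edgeR adjusted p = 9.1e-07) and by 0.34 ± 0.09 in CD11b+ DCs (adjusted p = 0.0074), and its value in CD103+ DCs was -0.15 ± 0.09 (95% confidence interval -0.35 to 0.04, adjusted p = 0.15). The value in CD11b+ DCs rested on single libraries, since it was 0.23 (adjusted p = 0.052) without LN CD11b+ replicate 3, 0.24 (adjusted p = 0.049) without LN double-positive replicate 3 as well, and lost its place under 0.01 in 7 of the 18 fits that left out a library. With library totals in place of TMM, which shifted all genes of the CD103+ comparison by a median of -0.22, the value in CD103+ DCs was -0.38 (adjusted p = 0.00052).

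Atf4 (ENSMUSG00000042406, chr15:80255184-80257541, plus strand, 1 exon) encodes the transcription factor of the PERK arm and is known to be controlled mainly at translation. Its CPM was 147, 125 and 146 in LP CD11b+, 142, 164 and 153 in LP CD103+ and 138, 124 and 143 in LP double-positive DCs. It was 125, 153 and 160 in LN CD11b+, 148, 140 and 167 in LN CD103+ and 130, 137 and 149 in LN double-positive DCs. Each group overlapped its neighbours in the order of levels. The 95% confidence interval of the LN over LP log2 fold change was -0.15 to 0.29 in CD11b+, -0.23 to 0.20 in CD103+ and -0.18 to 0.26 in double-positive DCs (edgeR adjusted p = 0.64, 0.92 and 0.76). With library totals in place of TMM the values in CD103+ and double-positive DCs were -0.24 and -0.13, the second of them turned in sign, and that in CD11b+ DCs was 0.20.

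Ddit3 (ENSMUSG00000025408, chr10:127290774-127296288, plus strand, 4 exons) encodes CHOP, which is known for its part in cell death under lasting ER stress. It was read at 6.17, 6.99 and 6.19 CPM in LP CD11b+, 5.80, 7.14 and 6.03 in LP CD103+ and 5.92, 5.52 and 4.78 in LP double-positive DCs. LN libraries held 10.7, 12.6 and 11.3 CPM in CD11b+, 21.6, 22.4 and 24.8 in CD103+ and 21.4, 18.9 and 18.1 in double-positive DCs. The 3 LP groups overlapped, and every LN library stood above every LP library. The log2 fold change of LN over LP was 0.84 ± 0.14 in CD11b+ (edgeR adjusted p = 0.00015), 1.86 ± 0.14 in CD103+ (adjusted p = 5.5e-09) and 1.85 ± 0.14 in double-positive DCs (adjusted p = 8.3e-09). Ddit3 shares 68 exon bases with Mars on the opposite strand, which had 1113 to 6155 counts against 134 to 566 for Ddit3, and if reads were counted without regard to strand those of the shared bases cannot be told apart.

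The tissue comparison asked which of the 10 genes differ between the DCs of the gut wall and those of the node that drains it. A gene was called at an edgeR adjusted p under 0.01 with a fold change over 2. In CD103+ DCs 4 members were called, where 35.0% of all genes tested were, with Ddit3 higher in LN (19.8% of all genes) and Sdf2l1, Hspa5 and Atf6 lower (15.1%). In double-positive DCs 5 members were called against 32.1% of all genes, with Ddit3 and Dnajb9 higher (18.6%) and Sdf2l1, Xbp1 and Hspa5 lower (13.6%). In CD11b+ DCs edgeR called 0 members and DESeq2 0, against 15.2% of all genes (10.3% higher and 4.93% lower), although 7 members had an unadjusted p under 0.05. Without the limit on fold change the members under an adjusted p of 0.01 were 6 in CD11b+ DCs (3 higher, 3 lower, 26.8% of all genes), 6 in CD103+ DCs (2 higher, 4 lower, 51.7%) and 9 in double-positive DCs (5 higher, 4 lower, 49.6%). The median log2 fold change of the 10 was -0.03 (CD11b+), -0.29 (CD103+) and 0.25 (double-positive), beside 0.03, 0.04 and 0.07 for all genes. The set thus had no common direction. The sums of maturation and T cell markers, and Xist, moved with the same tissue comparison. Sums of lineage markers moved as well. Under the double-positive label those of type 2 conventional DCs were 2632 to 3048 CPM in LP and 201 to 244 CPM in LN. Those of cDC1 were 256 to 292 CPM in LP double-positive and 938 to 1118 CPM in LN double-positive DCs. The part of all these markers in the differences was not tested.

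**Figure D3:**
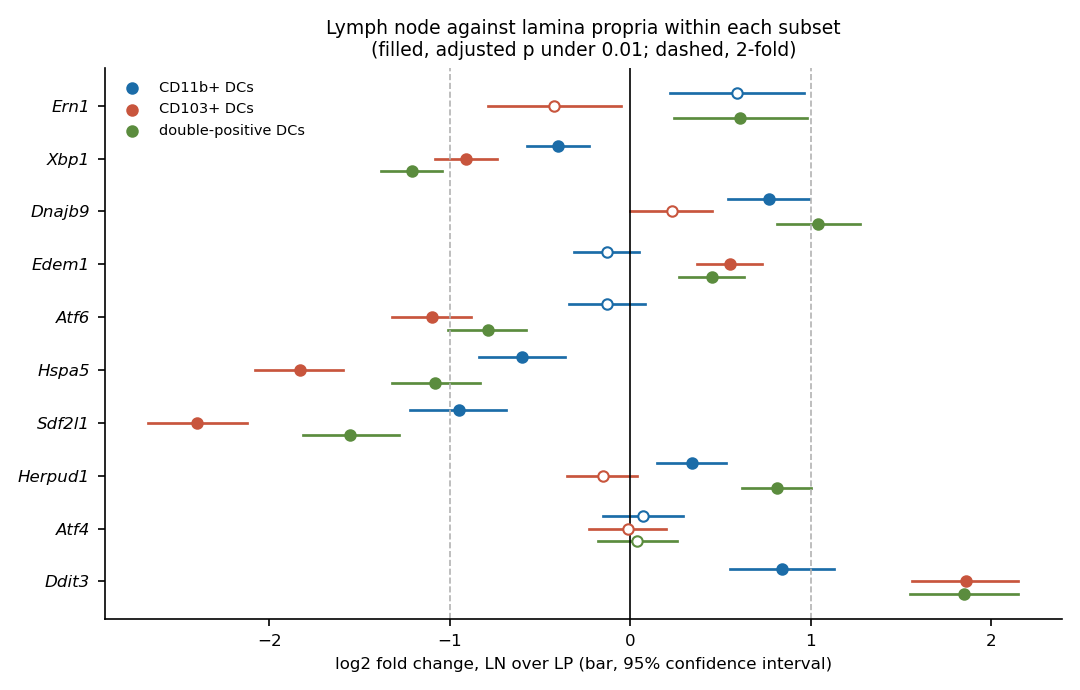
Log2 fold change of LN over LP of each gene for the CD11b+, CD103+ and double-positive subsets, with 95% confidence intervals, filled where the adjusted p is under 0.01. Sdf2l1 (-0.95, -2.40 and -1.55) and Hspa5 lie left of 0 in all 3 subsets, Ddit3 lies right of 0 in all 3, and the 3 intervals of Atf4 span 0.

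The size of the tissue difference varied by subset. An F test of the tissue by subset interaction was under an adjusted p of 0.01 for 9 of the 10 genes, against 31.5% of all genes tested, and Atf4 was the exception (adjusted p = 0.89). The smallest adjusted p was that of Sdf2l1 (1.8e-05), and Ern1 had the largest of the 9 (0.0035), which became 0.012 without LN CD103+ replicate 1, 0.011 without LN CD103+ replicate 2, 0.011 without LP CD103+ replicate 1 and 0.01 without LN CD11b+ replicate 3 and LN double-positive replicate 3. Of the 10, 7 passed with library totals in place of TMM. The LN over LP log2 fold change was lower in CD103+ than in CD11b+ DCs by -1.44 ± 0.18 for Sdf2l1 (edgeR adjusted p = 5.8e-06), -1.24 ± 0.16 for Hspa5 (adjusted p = 1.3e-05) and -0.98 ± 0.14 for Atf6 (adjusted p = 4.5e-05). It was higher in CD103+ than in CD11b+ DCs for Ddit3, by 1.02 ± 0.19 (adjusted p = 0.0005), and for Edem1, by 0.68 ± 0.12 (adjusted p = 0.00027). Between double-positive and CD103+ DCs the difference of these fold changes was 0.96 ± 0.13 for Herpud1 (adjusted p = 4.1e-05), 0.81 ± 0.15 for Dnajb9 (adjusted p = 0.0009) and 1.03 ± 0.25 for Ern1 (adjusted p = 0.0066), while for Ddit3 it was -0.01 ± 0.20. Xbp1 differed between double-positive and CD11b+ DCs by -0.81 ± 0.11 (adjusted p = 4.6e-05).

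Within LP, CD103+ DCs held more transcript than CD11b+ DCs of Herpud1 (log2 fold change 0.80 ± 0.09, edgeR adjusted p = 2.4e-06), Hspa5 (0.74 ± 0.11, adjusted p = 6.9e-05) and Sdf2l1 (0.61 ± 0.12, adjusted p = 0.00082). They held less of Atf6 (-0.56 ± 0.10, adjusted p = 0.0003), Xbp1 (-0.42 ± 0.08, adjusted p = 0.00045) and Edem1 (-0.32 ± 0.09, adjusted p = 0.0078), the last of which was over 0.01 in 14 of 18 fits without a library (-0.27, adjusted p = 0.044, without LP CD103+ replicate 1). None of these 6 reached 2-fold, so edgeR called 0 members and DESeq2 0 (7 had an unadjusted p under 0.05), beside 15.7% of all genes with the fold limit and 26.0% without it. The chaperones were thus highest in the LP subset whose Xbp1 and Atf6 transcripts were lowest. The plasma cell markers summed to 1795 to 3306 CPM in LP CD103+ and 8950 to 13391 CPM in LP CD11b+ DCs. In LN they summed to 1282 to 1891 CPM in CD103+ and 7811 to 10419 CPM in CD11b+ DCs. There Hspa5 (1025 against 725 CPM) and Sdf2l1 (172 against 96.7 CPM) were higher in CD11b+ than in CD103+ DCs, and Herpud1 was lower (547 against 679 CPM). The part of plasma cell RNA in these differences was not tested.

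Double-positive and CD11b+ DCs of the LP hardly differed over the set, and few of all genes tested differed between them either. Dnajb9 was lower in double-positive DCs (-0.67 ± 0.11, edgeR adjusted p = 0.00046), as 1 of 10 without the fold limit against 7.61% of all genes. With the limit edgeR called 0 members and DESeq2 0, with 3 at an unadjusted p under 0.05, against 4.81% of all genes. Against CD103+ DCs, LP double-positive DCs were lower in Dnajb9 (-1.04 ± 0.11, adjusted p = 9.6e-07), the 1 member called beside 13.6% of all genes, and this was -0.99 without LP double-positive replicate 3. Without the fold limit 6 members passed, beside 24.0% of all genes, with Hspa5 (-0.88 ± 0.11), Herpud1 (-0.58 ± 0.09) and Sdf2l1 (-0.50 ± 0.12) lower as well and Atf6 (0.61 ± 0.10) and Xbp1 (0.32 ± 0.08) higher. Of these, Sdf2l1 (adjusted p = 0.023 without LP double-positive replicate 3) and Xbp1 (adjusted p = 0.033 without LP CD103+ replicate 3) passed 0.01 only with all libraries or most of them. With the replicate letter as a block in the LP libraries alone, a fit added after the data were seen, the 2 comparisons with CD103+ DCs called 0 and 1 members.

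Within LN, CD103+ DCs differed from CD11b+ DCs most in Atf6 (-1.54 ± 0.10, edgeR adjusted p = 2.7e-09), the 1 member called with the fold limit, beside 25.9% of all genes. Ern1 (-1.0 ± 0.18, adjusted p = 0.00015), Ddit3 (0.99 ± 0.14, adjusted p = 1.1e-05) and Xbp1 (-0.94 ± 0.08, adjusted p = 4.4e-08) lay at the limit, so that the number called changed to 4 without LN CD11b+ replicate 2 (where Xbp1, Ddit3 and Sdf2l1 passed 2-fold), to 3 without LN CD11b+ replicate 1 and to 2 by DESeq2. Ern1 was past 2-fold in 15 of the 18 fits without a library, as far as -1.20 without LN CD103+ replicate 3. Sdf2l1 (-0.83 ± 0.12) and Hspa5 (-0.50 ± 0.11) were lower in CD103+ DCs too, the reverse of their order in LP. Edem1 (0.36 ± 0.09) and Herpud1 (0.31 ± 0.09) were higher under TMM, whereas with library totals, which shifted all genes by a median of -0.43, they turned to -0.06 and -0.12. Herpud1 also stood over 0.01 in 15 of 18 fits without a library (0.22, adjusted p = 0.088, without LN CD11b+ replicate 1), and Edem1 in 4 (0.25, adjusted p = 0.028, without LN CD11b+ replicate 2). In all, 8 members passed without the fold limit (3 higher, 5 lower), beside 42.9% of all genes. With library totals the split was 1 higher (Ddit3, 0.56, adjusted p = 0.0022) and 7 lower, to which Dnajb9 (-0.60, adjusted p = 0.00016) and Atf4 (-0.38, adjusted p = 0.0036) were added. Without LN CD11b+ replicate 3 and LN double-positive replicate 3 it was 3 higher and 4 lower, with Hspa5 at -0.41 (adjusted p = 0.011).

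LN double-positive DCs stood near LN CD103+ DCs and apart from LN CD11b+ DCs. Against CD11b+ DCs 8 members passed without the fold limit (3 higher, 5 lower), beside 32.3% of all genes. With library totals in place of TMM, which shifted all genes by a median of -0.37, the split was 1 higher and 7 lower, as Ddit3 (0.39, adjusted p = 0.026) and Edem1 (0.15, adjusted p = 0.11) no longer passed while Ern1 (-0.88, adjusted p = 0.00064) and Atf4 (-0.44, adjusted p = 0.0015) did. Without LN CD11b+ replicate 3 and LN double-positive replicate 3 it was 3 higher and 3 lower, with Sdf2l1 at -0.31 (adjusted p = 0.11) and Dnajb9 at -0.37 (adjusted p = 0.05). With the limit edgeR called 0 members and DESeq2 0, with 9 at an unadjusted p under 0.05, beside 16.7% of all genes, and Xbp1 reached 2-fold without LN CD11b+ replicate 1. The values were -0.91 ± 0.08 for Xbp1, 0.76 ± 0.14 for Ddit3, 0.70 ± 0.09 for Herpud1, -0.62 ± 0.10 for Atf6 and -0.62 ± 0.11 for Hspa5. Against CD103+ DCs 2 members passed without the fold limit, beside 15.4% of all genes, namely Atf6 (0.92 ± 0.10, edgeR adjusted p = 6.6e-06) and Herpud1 (0.39 ± 0.09, adjusted p = 0.0049, and 0.024 without LN CD103+ replicate 1). With the limit edgeR called 0 members and DESeq2 0, with 5 at an unadjusted p under 0.05, beside 6.53% of all genes, and Atf6 reached 1.01 without LN double-positive replicate 2. The comparisons within a tissue share their libraries pairwise and are not independent.

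Another 101 genes of the same pathways were counted, in 6 lists, all of which were tested. In LN against LP, 40 of the 101 were called in CD103+ DCs (13 higher, 27 lower), 33 in double-positive DCs (12 higher, 21 lower) and 5 in CD11b+ DCs (3 higher, 2 lower), to be read against 35.0%, 32.1% and 15.2% of all genes. The median log2 fold change of the 101 was -0.44, -0.19 and -0.01 in that order. Of the list of 22 ER chaperones and folding enzymes, 12 were called lower and 0 higher in LN in CD103+ DCs (median log2 fold change -1.14), and 7 lower and 2 higher in double-positive DCs (median -0.67). In CD11b+ DCs edgeR called 0 of the 22 and DESeq2 0, with 13 at an unadjusted p under 0.05 and a median of -0.23. In CD103+ DCs Hyou1, an Hsp70-like partner of BiP, averaged 11.5 CPM in LN against 70.5 in LP (log2 fold change -2.62), the disulphide isomerase Pdia6 144 against 852 (-2.56) and Hsp90b1, which encodes the chaperone GRP94, 152 against 848 (-2.48). The rises in double-positive DCs were of Dnajc10, a disulphide reductase (219 against 60.3 CPM, 1.86), and Ero1lb, an oxidase that supplies disulphides (313 against 87.0 CPM, 1.85).

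The 32 genes of translocation, glycosylation and ER export had 7 called lower and 1 higher in CD103+ DCs (median -0.76), 7 lower and 0 higher in double-positive DCs (median -0.36) and 1 lower in CD11b+ DCs (Sec61b, -1.14). Those called were 25.0%, 21.9% and 3.12% of the list in that order, below the 35.0%, 32.1% and 15.2% of all genes. Rpn1, a subunit of the oligosaccharyltransferase, averaged 122 CPM in LN CD103+ against 829 in LP CD103+ DCs (-2.76). The 14 genes of ER-associated degradation were divided, with 4 higher and 2 lower in CD103+ DCs (median 0.22), 4 higher and 1 lower in double-positive DCs (median 0.50), and 0 called by edgeR or DESeq2 in CD11b+ DCs, where 6 had an unadjusted p under 0.05. Those called were 42.9% of the list in CD103+ and 35.7% in double-positive DCs, beside 35.0% and 32.1% of all genes. The lectin gene Erlec1 was higher in LN in CD103+ (29.0 against 6.36 CPM, 2.19) and double-positive DCs (18.8 against 5.45 CPM, 1.79), and Sel1l, the partner of the ubiquitin ligase Hrd1, in double-positive DCs (281 against 108 CPM, 1.38). Derl3 was lower in LN CD103+ DCs (3.88 against 16.1 CPM, -2.06). These lists were chosen with earlier results of these data known, and counts are given as a description.

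**Figure D4:**
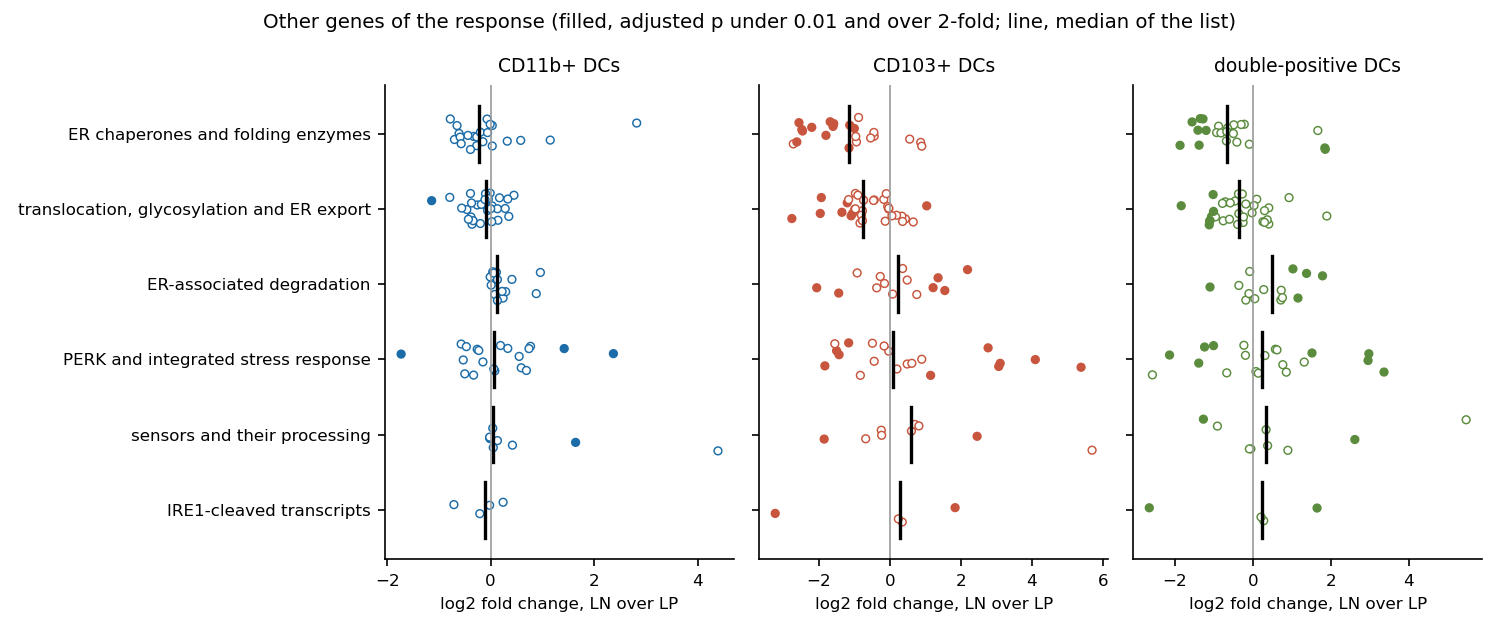
Log2 fold change of LN over LP of the 101 further pathway genes, a point per gene, by list and subset, with the list median as a line. The 22 chaperones have medians of -0.23 (CD11b+), -1.14 (CD103+) and -0.67 (double-positive), while the 14 degradation genes a median of 0.50 in double-positive DCs.

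The 20 genes of the PERK and integrated stress response arm had 6 called higher and 4 lower in CD103+ DCs (median 0.08), 4 higher and 4 lower in double-positive DCs (median 0.23) and 2 higher and 1 lower in CD11b+ DCs (median 0.07). Ppp1r15a, which encodes the phosphatase subunit GADD34 that ends eIF2 phosphorylation, averaged 851 CPM in LN CD103+ against 124 in LP CD103+ DCs (log2 fold change 2.77). The cystine transporter gene Slc7a11 averaged 24.7 against 0.602 CPM in CD103+ DCs (5.39) and 103 against 13.0 CPM in double-positive DCs (2.98). Nupr1 was higher in LN CD11b+ (25.8 against 5.00 CPM, 2.37) and LN double-positive DCs (14.8 against 1.43 CPM, 3.37). Asns, the asparagine synthetase gene and an ATF4 target, was lower in LN CD103+ DCs (5.42 against 19.2 CPM, -1.83), and Atf3 was lower in LN CD11b+ (258 against 858 CPM, -1.73) and LN double-positive DCs (299 against 1320 CPM, -2.14). Known ATF4 and CHOP targets were therefore found on both sides. Atf3 is also induced when tissue is digested. The dissociation markers (14 genes, none at 0) summed to 16687 to 20328 CPM in LP double-positive and 9654 to 12156 CPM in LN double-positive DCs, and overlapped in CD11b+ DCs (15737 to 18238 CPM in LP and 14010 to 16420 CPM in LN), where Atf3 was lower in LN as well. Their part in the result was not tested.

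Of the 9 genes of sensors and their processing, Traf2, which encodes the adaptor that binds IRE1, was higher in LN in all 3 subsets, at 172 against 55.4 CPM in CD11b+ (1.64), 246 against 44.6 in CD103+ (2.46) and 286 against 46.3 in double-positive DCs (2.62). Traf2 also serves receptors of the TNF family. Creb3l2, a membrane-bound transcription factor, was lower in LN CD103+ DCs (2.82 against 10.1 CPM, -1.85). The PERK gene Eif2ak3 was called in no subset, with values of 0.05, -0.23 and -0.09. Of 4 transcripts known to be cut by IRE1, Tapbp was higher in LN CD103+ (3724 against 1040 CPM, 1.84) and LN double-positive DCs (2538 against 808 CPM, 1.65), and Itgb2, which pairs with CD11a, was lower (107 against 999 CPM, -3.23, and 194 against 1227 CPM, -2.66). The others, Bloc1s1 and Ergic3, were called in no subset. Without the fold limit 3 of the 4 passed in each of these subsets (2 higher, 1 lower), beside 51.7% (CD103+) and 49.6% (double-positive) of all genes. In CD11b+ DCs edgeR called 0 of the 4 and DESeq2 0, beside 15.2% of all genes, with 2 at an unadjusted p under 0.05.

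Across the 18 libraries the members fell into groups of like pattern, as described by Pearson correlations of log2 CPM that carry no test, since libraries of a group and tissue are not independent. Hspa5 and Sdf2l1 had r = 0.95, Xbp1 and Atf6 r = 0.86, Ddit3 and Sdf2l1 r = -0.94 and Ddit3 and Xbp1 r = -0.92. Once each group's mean was taken off, these became 0.48, -0.03, -0.08 and 0.24. They thus described differences between groups more than between libraries of a group. Hspa5 and Herpud1 went the other way, with r = -0.26 over all libraries and 0.86 within groups, and Atf6 and Edem1 had r = -0.45 and 0.76.

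**Figure D5:**
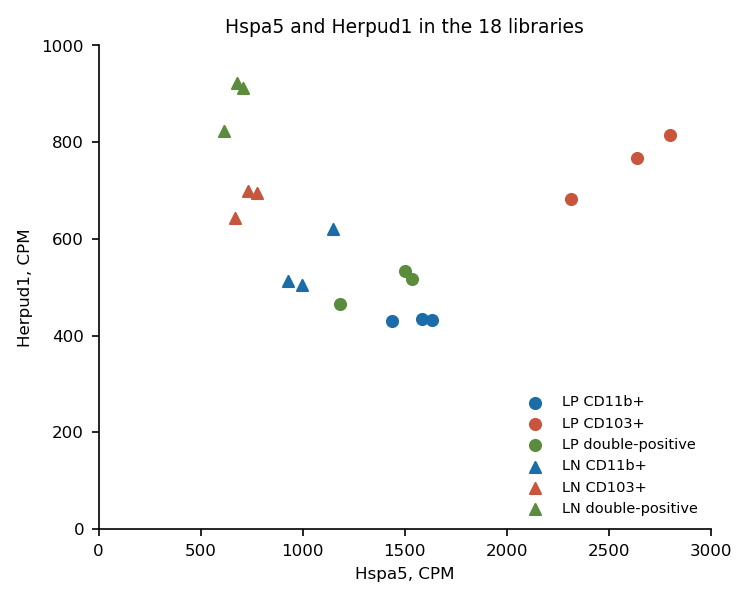
Herpud1 against Hspa5, in CPM from 0, in the 18 libraries by group (circles LP, triangles LN). Over all libraries r is -0.26 on the log2 scale, while within the groups r is 0.86. The 3 LN double-positive libraries are the highest in Herpud1 (824 to 923 CPM). The 3 LP CD103+ libraries are the highest in Hspa5 (2316 to 2799 CPM) and hold 682 to 815 CPM of Herpud1.

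The genes most like each member were the 3 with the highest Pearson r of log2 CPM over 18 libraries, among 8672 genes with a mean of at least 10 CPM. For Sdf2l1 these were P4hb, a disulphide isomerase of the ER (0.988), Lamtor2 (0.983) and Taldo1 (0.983), and for Hspa5 they were Slc35b1 (0.983), Ncbp2 (0.979) and Mlec (0.978). P4hb was the 1 gene of the pathway lists among the 30 named for the 10 members. For Ddit3 they were Rftn1 (0.992), Ppp1r16a (0.991) and Iscu (0.988), for Xbp1 Mri1 (0.984), Ptma (0.979) and Egr1 (0.978), and for Atf6 Ptprc (0.977), Bcl11a (0.977) and H2-Oa (0.972). Egr1 is among the 14 dissociation markers, and the part of dissociation in the level of Xbp1 was not tested. Lower values were found for Edem1 (Csf2rb, 0.952), Dnajb9 (Saraf, 0.947), Herpud1 (Mpzl2, 0.936), Ern1 (Rab27a, 0.842) and Atf4 (Ubn2, 0.632). Atf4, whose level hardly varied, had no gene that followed it closely.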

How the data were processed

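RNA-seq was measured in 18 libraries of CD11a KO DCs in 6 groups of 3. The authors deposited raw read counts per gene, with no normalization. Per the labels, libraries were made with Smart-seq v4 and read on a HiSeq4000, and the submitters' processing notes name FastQC 0.11.7, STAR 2.6 and GRCm38. The counting tool and its strand setting are not given in the sources used here. Identifiers were matched to GENCODE vM21 (54079 of 54232), which also gave positions and exon lengths. No columns of other samples were present (0).

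Counts were normalized by TMM, filtered by filterByExpr and fitted for all 6 groups with edgeR 4.0.16 (R 4.3.3, quasi-likelihood, 17074 genes, Benjamini-Hochberg over all). Genes were called at an adjusted p under 0.01 and a fold change over 2. CPM used TMM library sizes, and correlations used log2 CPM with a prior count of 2. Alternatives were DESeq2 1.42.0 as the test, its size factors, library totals, no filter, at least 100 counts in at least 3 libraries, other thresholds, only the libraries compared, the replicate block and each library left out.

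Replicates carry the letters A to C in the labels. Deviations of same-lettered libraries from their group means correlated above 0.1 in every pair in 2 comparisons. These were LP CD103+ against CD11b+ (0.15, 0.20 and 0.21) and LP double-positive against CD103+ DCs (0.16, 0.13 and 0.19). In no other comparison did every pair pass 0.1, with 0.21, 0.08 and 0.25 in LP double-positive against CD11b+ DCs. The labels do not say what the letters stand for, so whether they pair samples is not known. No 2 replicates agreed within sampling noise (chi-square per gene 14.9 to 64.9).

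All members were named. Genes of the pathway lists were named from up to 3 per list and tissue comparison, and not all of these were named. The 3 were the largest changes among those called whose libraries did not overlap and whose higher group averaged at least 10 CPM. Eif2ak3 and Itgam, Itgae, Itgal, Xist and Ddx3y were named for the sensors, the sort and the sex of the animals. Creld2 and Bloc1s1 had also been set to be named, and their values are not given here. The members and lists were chosen with earlier results of these data known.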

Additional observations from a re-analysis of the deposited data

Results flagged for a closer look

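The tissue difference (LN over LP) was not the same in the 3 subsets for 9 of the 10 genes, by the F test of the interaction over all genes tested with edgeR. The adjusted p was 1.8e-05 for Sdf2l1, 3.7e-05 for Hspa5, 5.1e-05 for Herpud1, 6.8e-05 for Xbp1, 0.00011 for Atf6, 0.00041 for Edem1, 0.00043 for Ddit3, 0.0011 for Dnajb9 and 0.0035 for Ern1. Of all genes tested, 31.5% passed the same test, so a difference between subsets was common in these libraries. For Sdf2l1, Hspa5, Ddit3 and Xbp1 the log2 fold changes had the same sign in all 3 subsets and differed in size. For Ern1 the sign was negative in CD103+ DCs (-0.42) and positive in CD11b+ (0.59) and double-positive DCs (0.61). With library totals in place of TMM the adjusted p of Edem1 was 0.039 and that of Ddit3 was 0.01, no longer under the threshold. The sum of maturation markers differed between LN CD11b+ (3331 to 4889 CPM) and LN CD103+ DCs (25690 to 26852 CPM) along with these differences, and its part in them was not tested. Lineage markers under the double-positive label differed between the tissues, and their part was not tested either.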

How the results depend on the processing

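Of 2550 member fold changes under the alternatives, 2469 kept their side of the call, 78 gained a call (37 with the fold limit kept), 3 lost one and 0 called values reversed. Among the 2469, 23 values that were not called turned in sign. The calls lost were of Dnajb9, in LN against LP double-positive DCs with library totals (0.87) and without LP double-positive replicate 3 (0.99), and in LP double-positive against CD103+ DCs without that library (-0.99). Without the limit on fold, the members passing were 6, 6 and 9 for LN against LP in CD11b+, CD103+ and double-positive DCs, and 30, 76 and 70 pathway genes. They were 6, 1 and 6 in the LP comparisons (CD103+ against CD11b+, double-positive against CD11b+, double-positive against CD103+) and 8, 8 and 2 in those of the LN. For LN CD103+ against CD11b+ DCs, the 1 member called became 2 with DESeq2 size factors, the DESeq2 test, no filter, at least 100 counts in at least 3 libraries, only the libraries compared, or the replicate block, and 4 with library totals, because Ern1, Ddit3, Xbp1 and Sdf2l1 lay near 2-fold. With library totals, LN double-positive against CD11b+ DCs called 1 member (Xbp1, -1.28), and the F test 7.

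Leaving out 1 library at a time gave 0 to 1 members for LN against LP in CD11b+, 4 to 4 in CD103+ and 4 to 5 in double-positive DCs, with 4 to 6, 39 to 44 and 31 to 33 pathway genes. It gave 0 to 1 for LP double-positive against CD103+, 1 to 4 for LN CD103+ against CD11b+, 0 to 1 for LN double-positive against CD11b+ and 0 to 1 for LN double-positive against CD103+ DCs, and 8 to 9 in the F test. The replicate block called 0, 4 and 5 members in the tissue comparisons, and moved no count of members by more than 1.5 times but that of LN CD103+ against CD11b+ DCs. Without LN CD11b+ replicate 3 and LN double-positive replicate 3, an alternative added after the data were seen, 1 member was called for LN against LP in CD11b+ DCs (Sdf2l1, -1.05), 2 for LN CD103+ against CD11b+ DCs (Ern1, -1.04, added), and 8 in the F test, where Ern1 stood at 0.01. Totals differed from TMM by a median over all genes of 0.13, -0.22 and -0.17 on the log2 scale for the tissue comparisons, -0.43 for LN CD103+ against CD11b+ and -0.37 for LN double-positive against CD11b+ DCs. In the last 2, Atf4 went from 0.05 and -0.07 to -0.38 (adjusted p = 0.0036) and -0.44 (adjusted p = 0.0015). Ddit3 and Ern1 had the fewest counts, from 134 and 214 in a library, and 3 libraries a group limit the precision of their fold changes.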
